A study of Mus musculus with 15 samples.

Results

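Bst2, Lgals3bp, Xaf1 and Ifi27 are 4 interferon-related genes whose RNA was still above its starting level 24 h after interferon beta had been washed off mouse embryonic fibroblasts (MEFs). They were chosen by their measured read counts, out of 24015 counted genes, because these stayed high after washout in cells lacking Nsd2, in wild-type cells, or in both. Their levels after washout are therefore a description and carry no test. Nsd2, counted under its older symbol Whsc1, is a histone methyltransferase that adds H3K36 dimethylation. The cells were c57bl/6 MEFs labelled NSD2 KO, Nsd2(-/-), or WT, Nsd2(+/+), and every group was read by RNA sequencing as counts per gene. Pretreated cells had received interferon beta for 3 h, had been washed, and had then spent 24 h without it. Pretreated 2 h libraries came from such cells given a second exposure of 2 h, and pretreated 0 h libraries from cells taken at the end of the 24 h. Naive 2 h libraries came from cells given 2 h of interferon beta at 100 units/ml as a first exposure, and naive 0 h libraries from cells that had received none. Both genotypes were taken through all 4 states, which gave 8 groups and 15 libraries. KO naive 2 h had 1 library and each other group had 2. Whether the KO cells are 1 line or clone or several is not given in the sources used here, and no separate cultures or animals are named, so that p-values measure only the spread between libraries, which may be technical.

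Interferon beta binds a receptor made of Ifnar1 and Ifnar2, whose kinases Jak1 and Tyk2 pass the signal to transcription factors, Stat2 and Irf9 among them, that act at interferon-stimulated response elements near target genes. Socs1 and Usp18 are induced by the same signal and dampen it. Of the 4 genes, Bst2 (tetherin) encodes a membrane protein that holds budding enveloped virus particles at the cell surface. Lgals3bp encodes a secreted glycoprotein that binds galectin-3. Xaf1 encodes a partner of the apoptosis inhibitor Xiap that counteracts it. Ifi27 encodes a small hydrophobic protein of the ISG12 family.

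The sequence around the gene start is shown for the genes present in the promoter table, because the 4 genes differed in how much they were raised by interferon. The windows run from 250 bases before to 50 bases after the start, in the direction of the gene, from RefSeq on GRCm38.p6. They are chr8:71537423-71537722 on the minus strand for Bst2, chr11:118401910-118402209 on the minus strand for Lgals3bp and chr11:72301379-72301678 on the plus strand for Xaf1. Ifi27 is named only. Both strands were searched for an interferon-stimulated response element core (GAAANNGAAA), a gamma-activated site (TTCNNNGAA) and, added after the promoters had been read, a shorter interferon regulatory factor core (AANNGAAA) that lies inside every match of the first motif. Capitals mark the response element and regulatory factor cores.
Bst2: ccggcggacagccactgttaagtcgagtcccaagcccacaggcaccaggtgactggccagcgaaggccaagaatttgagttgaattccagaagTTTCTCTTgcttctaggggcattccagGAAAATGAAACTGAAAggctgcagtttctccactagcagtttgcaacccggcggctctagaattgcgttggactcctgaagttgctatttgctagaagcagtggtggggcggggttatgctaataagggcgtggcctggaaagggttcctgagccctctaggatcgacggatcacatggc
Lgals3bp: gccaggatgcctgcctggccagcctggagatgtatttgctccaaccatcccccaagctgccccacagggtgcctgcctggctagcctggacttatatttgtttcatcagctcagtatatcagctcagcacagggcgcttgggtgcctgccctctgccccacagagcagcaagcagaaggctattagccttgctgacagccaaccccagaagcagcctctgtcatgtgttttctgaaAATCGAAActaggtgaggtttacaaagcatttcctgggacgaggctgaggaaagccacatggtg
Xaf1: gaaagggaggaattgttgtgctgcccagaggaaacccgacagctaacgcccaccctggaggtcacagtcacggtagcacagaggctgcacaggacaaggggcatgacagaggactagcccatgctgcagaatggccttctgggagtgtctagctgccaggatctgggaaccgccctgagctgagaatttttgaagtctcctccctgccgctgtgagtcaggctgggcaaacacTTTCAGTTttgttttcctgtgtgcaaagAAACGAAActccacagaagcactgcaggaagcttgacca
The Bst2 window held 2 overlapping response element cores, starting at -130 and -124 from the gene start, and a gamma-activated site at -136 that overlaps the first of them. No response element core or gamma-activated site was found in these letters for Lgals3bp or Xaf1. Shorter cores lay at -14 in Lgals3bp and at -17 and 12 in Xaf1. Among all 32851 promoter windows of the table, 3.44% held the response element core, 8.3% the gamma-activated site and 23.9% the shorter core. Counted per gene, by any of its windows, the shares were 3.99%, 9.55% and 26.7% of 27025 genes. Among the 46 listed interferon genes with a window they were 43.5%, 26.1% and 56.5%, also counted per gene. A match describes the letters and is no evidence of binding.

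Levels below are CPM (a per-million scale), the counts of a gene scaled to a fixed total of all gene counts in its library, which are not corrected for gene length and are compared only within a gene. All 4 genes passed the filter on low counts, with 33 to 3700 reads per library for Bst2, 90 to 4547 for Lgals3bp, 34 to 4285 for Xaf1 and 402 to 1709 for Ifi27. A count in a bulk library does not tell fewer expressing cells from less RNA per cell. Where groups are said not to overlap, the share of all genes separated in the same way is not given here.

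Bst2 had 83.9 and 83.4 CPM in KO pretreated 2 h libraries, 35.2 and 46.4 in KO pretreated 0 h, 46.8 in KO naive 2 h and 9.97 and 8.29 in KO naive 0 h. In WT cells it had 25.9 and 24.3 CPM at pretreated 2 h, 10.3 and 10.8 at pretreated 0 h, 5.99 and 4.69 at naive 2 h and 3.00 and 1.92 at naive 0 h. The groups ran in the order KO pretreated 2 h, KO naive 2 h, KO pretreated 0 h, WT pretreated 2 h, WT pretreated 0 h, KO naive 0 h, WT naive 2 h and WT naive 0 h, and no neighbouring groups in that order overlapped. In KO cells both pretreated 0 h libraries thus lay under the single naive 2 h library, whereas in WT cells both pretreated 0 h libraries lay above both naive 2 h libraries.

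Lgals3bp had 103 and 91.1 CPM in KO pretreated 2 h libraries, 45.7 and 53.7 in KO pretreated 0 h, 58.7 in KO naive 2 h and 18.7 and 17.1 in KO naive 0 h. In WT cells it had 37.3 and 32.5 CPM at pretreated 2 h, 15.1 and 16.1 at pretreated 0 h, 10.6 and 9.29 at naive 2 h and 7.52 and 5.24 at naive 0 h. Here too no neighbouring groups overlapped in CPM, and the WT pretreated 0 h libraries lay above both WT naive 2 h libraries. On CPM scaled by TMM, explained below, KO naive 0 h (17.7 and 16.1) and WT pretreated 0 h (14.9 and 16.6) overlapped.

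Xaf1 had 97.1 and 96.1 CPM in KO pretreated 2 h libraries, 16.2 and 21.9 in KO pretreated 0 h, 74.6 in KO naive 2 h and 2.46 and 3.94 in KO naive 0 h. In WT cells it had 36.8 and 30.5 CPM at pretreated 2 h, 5.19 and 6.73 at pretreated 0 h, 9.19 and 7.82 at naive 2 h and 2.04 and 1.98 at naive 0 h. Xaf1 after washout lay above naive 0 h and under naive 2 h in both genotypes, with no overlap between these groups.

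Ifi27 had 38.7 and 41.9 CPM in KO pretreated 2 h libraries, 39.3 and 49.0 in KO pretreated 0 h, 21.0 in KO naive 2 h and 24.4 and 25.5 in KO naive 0 h. In WT cells it had 54.9 and 52.8 CPM at pretreated 2 h, 43.6 and 50.8 at pretreated 0 h, 27.2 and 23.8 at naive 2 h and 27.4 and 23.4 at naive 0 h. Every pretreated library lay above every naive library in both genotypes. WT pretreated 0 h, KO pretreated 0 h and KO pretreated 2 h overlapped with their neighbours in the order, as did WT naive 2 h, WT naive 0 h and KO naive 0 h. Ifi27 overlaps Ifi27l2a in the RefSeq gene table, and since no strand setting is stated its counts are uncertain to that extent. No gene of that table overlaps the other 3.

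**Figure D1:**
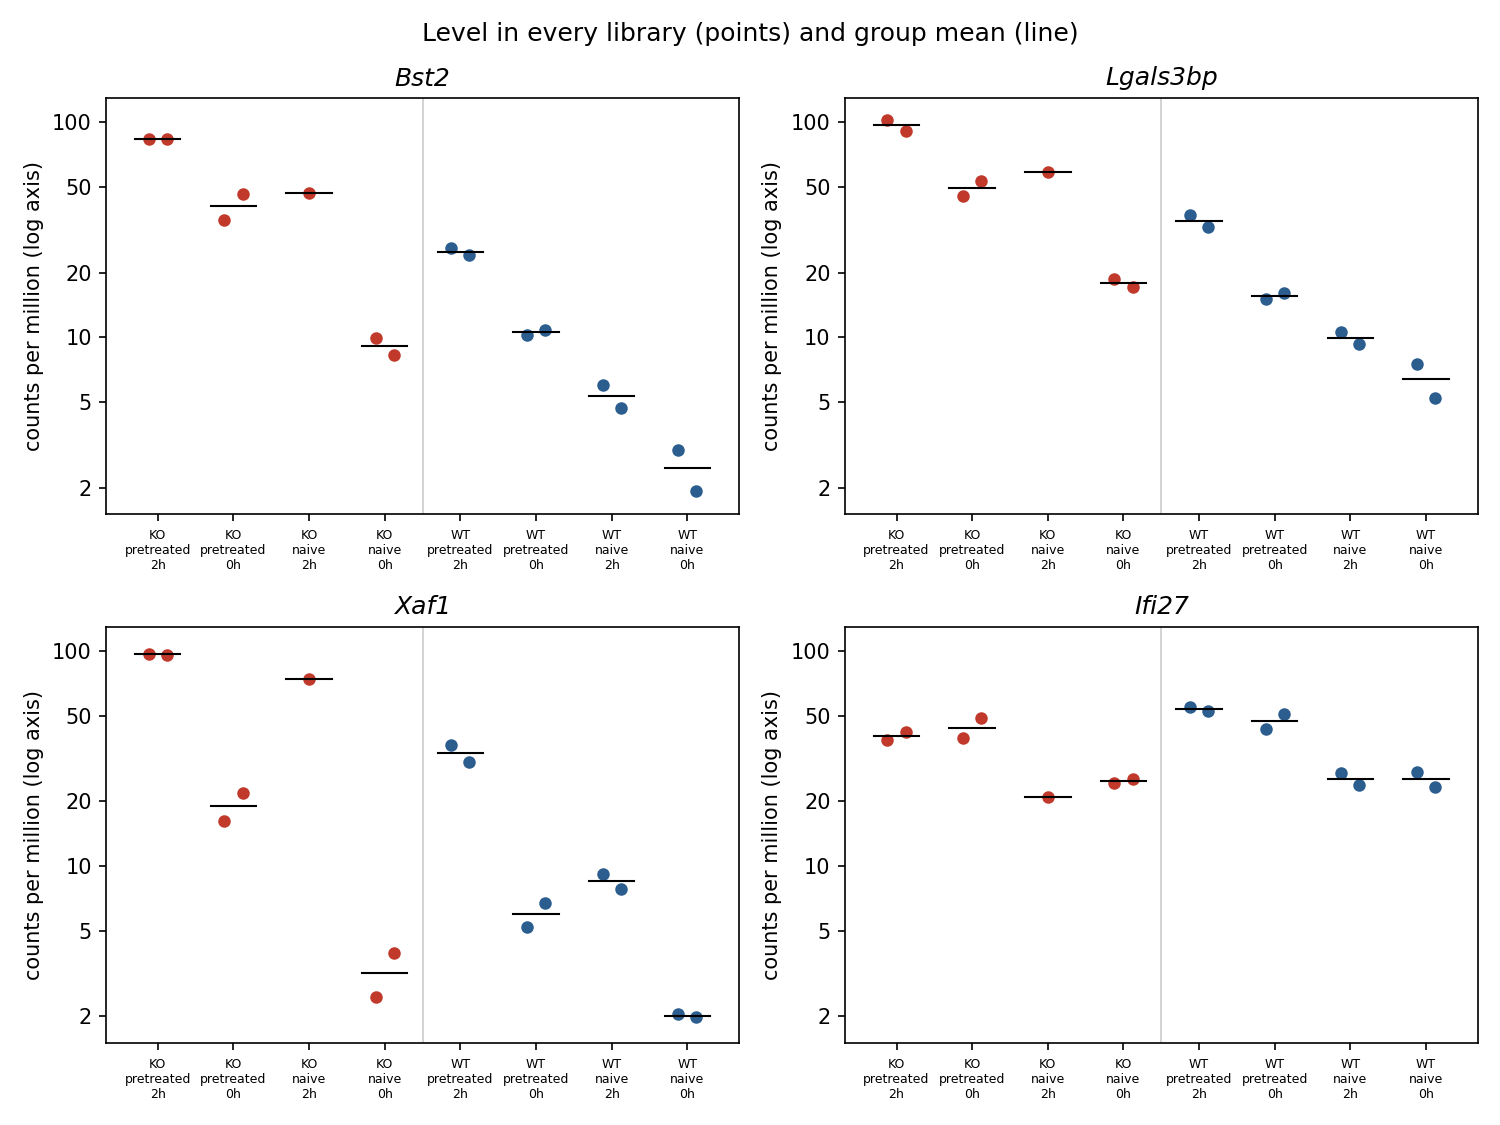
Level of Bst2, Lgals3bp, Xaf1 and Ifi27 in every library, in CPM on a log axis, for the 4 states of KO cells (red) and WT cells (blue). Points are libraries and lines group means. Ifi27 splits into pretreated libraries, the lowest at 38.7, and naive libraries, the highest at 27.4, while the other 3 genes are lowest at WT naive 0 h.

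The KO pretreated 0 h library with the higher value of each gene, and the WT naive 0 h library with the higher value of each gene, were among the 3 libraries in which 2 abundant RNAs, Rn45s and Lars2, took the smallest share of counts (19.0% and 10.6%, against up to 29.4%). A smaller share raises the CPM of all other genes, and the part it played in these differences between libraries was not tested. Changes given as log2 below come from a model over all libraries that scales them by TMM, which adjusts for such differences, so that they can depart from ratios of CPM. For Bst2 at 2 h in naive KO cells the fitted fold was 6.04 and the ratio of CPM 5.12.

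Persistence and first induction took different sizes in the 4 genes. Bst2 averaged 40.8 ± 7.92 CPM in KO pretreated 0 h cells (SD, n = 2) and 9.13 ± 1.19 in KO naive 0 h cells (SD, n = 2), 4.47 times as much, and in WT cells the same ratio was 4.29. The ratio of pretreated 0 h to naive 0 h was 2.77 in KO and 2.44 in WT cells for Lgals3bp, 5.95 and 2.96 for Xaf1, and 1.77 and 1.86 for Ifi27. The fold at 2 h of first exposure, naive 2 h over naive 0 h, was 5.12 in KO and 2.17 in WT cells for Bst2. For Lgals3bp it was 3.27 and 1.56, for Xaf1 23.3 and 4.23, and for Ifi27 0.840 and 1.0. Mean Ifi27 CPM at 2 h was thus under that of naive 0 h cells in KO cells, from 1 library, and within the spread of naive 0 h libraries in WT cells. On TMM-scaled CPM the WT naive 2 h libraries (29.1 and 24.9) lay above the WT naive 0 h libraries (22.4 and 23.3).

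On the fitted log2 scale the change left after washout was 2.19 ± 0.089 (SE) in KO and 2.20 ± 0.14 in WT cells for Bst2, 1.49 ± 0.073 and 1.42 ± 0.10 for Lgals3bp, 2.5 ± 0.15 and 1.78 ± 0.21 for Xaf1 and 0.83 ± 0.081 and 1.07 ± 0.083 for Ifi27. The fitted change at 2 h of first exposure was 2.59 ± 0.10 in KO and 1.32 ± 0.16 in WT cells for Bst2, 1.93 ± 0.084 and 0.86 ± 0.11 for Lgals3bp, 4.69 ± 0.14 and 2.38 ± 0.19 for Xaf1 and -0.041 ± 0.11 and 0.26 ± 0.089 for Ifi27. The small KO value of Ifi27 turned to 0.012 with a replicate block. Both contrasts share the naive 0 h libraries, and the washout contrast chose the genes, so neither set of values carries a p. Among all 13802 genes tested, 22.4% were called in KO and 24.2% in WT cells for the washout contrast, and 36.5% and 31% for 2 h of first exposure.

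**Figure D2:**
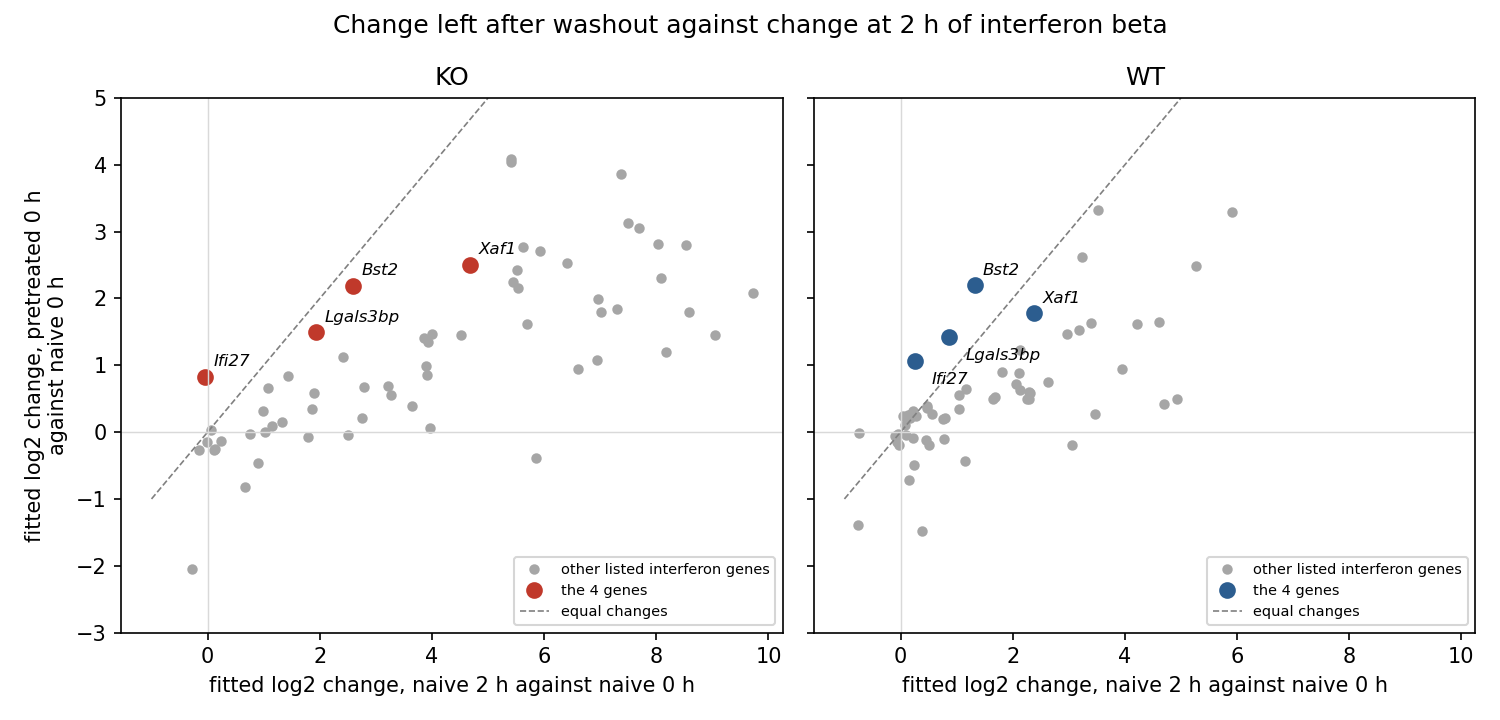
Fitted log2 change left after washout (pretreated 0 h against naive 0 h, vertical) against the fitted log2 change at 2 h of first exposure (naive 2 h against naive 0 h, horizontal), in KO and WT cells. Coloured points are the 4 genes, grey points the other listed interferon genes (Oasl1 and Zbp1, with no count in WT pretreated 0 h libraries, are left out of the WT panel, and 1 other listed gene of both), and the dashed line marks equal changes. In WT cells Bst2 lies at 1.32 and 2.20, above the line, and Xaf1 at 2.38 and 1.78, under it.

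Set against the level reached at 2 h of first exposure, the level after washout was 0.873 in KO and 1.98 in WT cells for Bst2, 0.847 and 1.56 for Lgals3bp, 0.255 and 0.701 for Xaf1 and 2.11 and 1.85 for Ifi27. As a yardstick, 3 lists of other interferon genes were followed (12 of receptor and signalling, 29 antiviral effectors and sensors, 18 of the membrane and of antigen presentation). Of these, 48 had a fitted rise of at least 2-fold at 2 h in KO cells, and their ratios ran between 0.00592 and 0.868 with a median of 0.131. In WT cells 33 did so, with ratios up to 0.911 and a median of 0.326. None of the listed genes raised at least 2-fold exceeded 1 in either genotype. Listed genes not raised 2-fold could exceed it, such as Il15 (1.76) and Herc6 (1.15) in WT cells and Jak1 (1.12) in KO cells. Il15 fell at 2 h in WT cells (fitted log2 change -0.74), which raises its ratio. Herc6 in WT cells and Jak1 in KO cells were not called at 2 h. Ifi27 in both genotypes and Lgals3bp in WT cells were themselves not raised 2-fold at 2 h, and the 4 genes were picked for staying high, so the lists are set beside them as a description only. The ratio includes the level before interferon, so a small rise from a high start also gives a high ratio. The highest listed ratios in KO cells belonged to genes of MHC class I presentation and the membrane, B2m (0.868), H2-D1 (0.762) and Ly6e (0.569). Of these, B2m and H2-D1 were called higher after washout in KO cells. Ly6e was not called, with 112.8 CPM at KO pretreated 0 h and 113.0 at KO naive 0 h. In WT cells the highest listed ratios belonged to Oas1a (0.911) and Oas3 (0.859), which make the activator of RNase L, and to the helicase-like Ddx60 (0.771). These rest on very low levels, with means of 0.472, 0.347 and 0.255 CPM at WT pretreated 0 h in the same order. Oas3 and Ddx60 were called neither at 2 h nor after washout in WT cells. The lowest listed ratios in KO cells were those of the antiviral genes Rsad2 (0.00592), Mx1 (0.00595) and Ifit3 (0.00903). In WT cells Oasl1 and Zbp1 were at 0 after washout and Ifit1 at 0.0490.

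**Figure D3:**
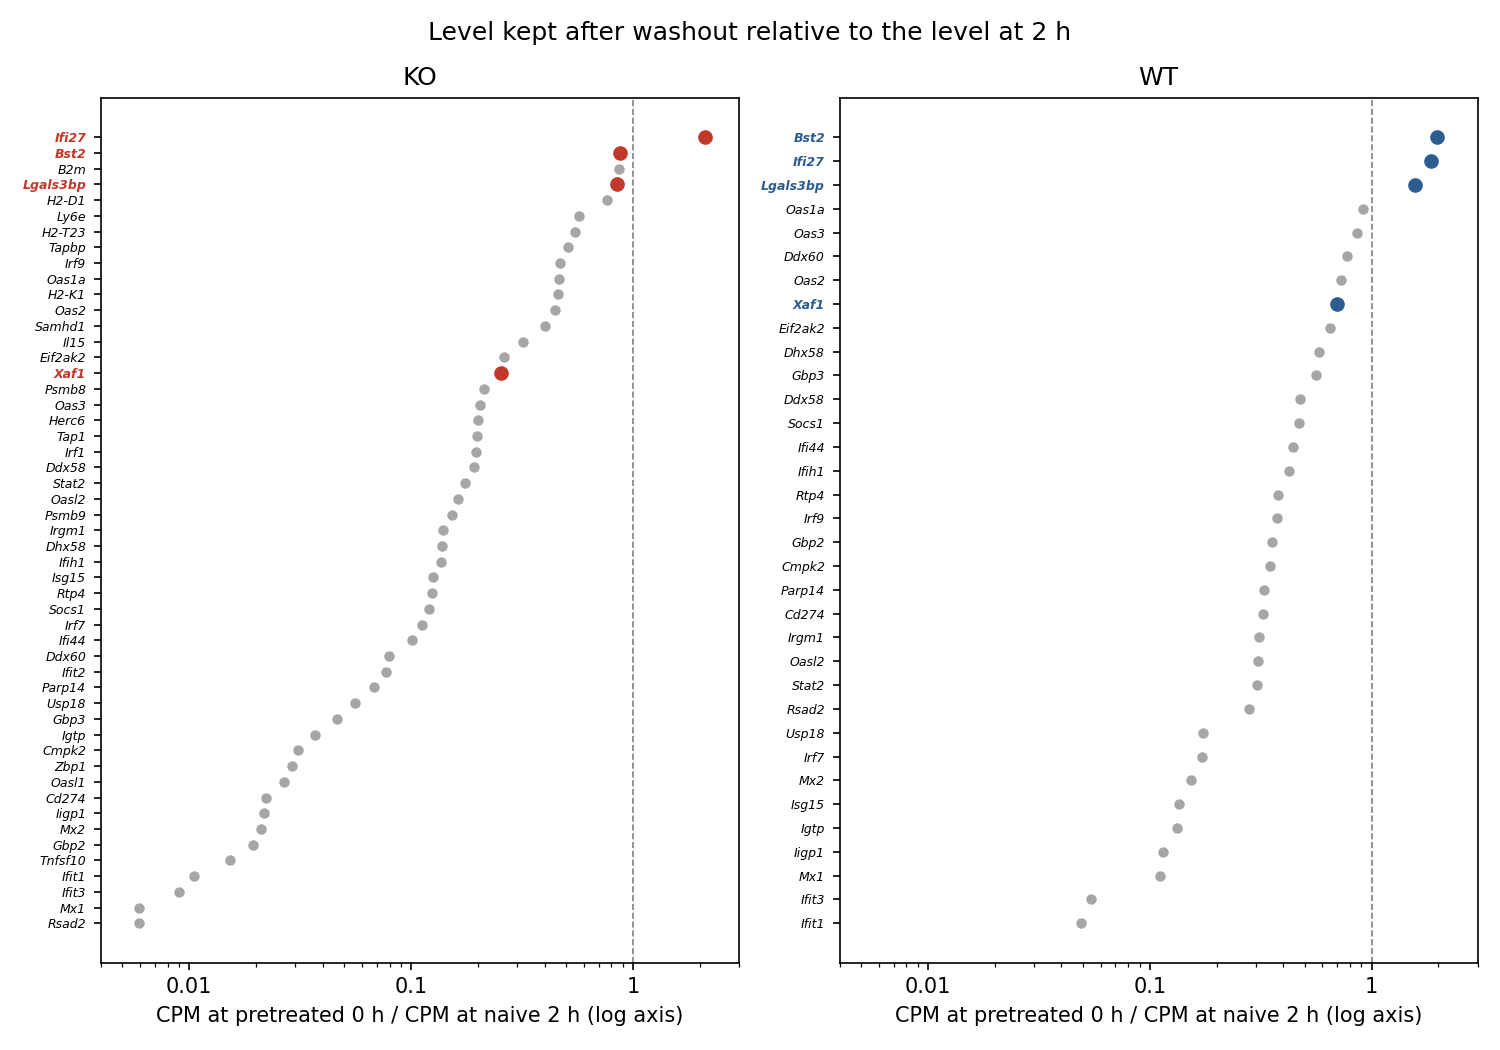
Mean CPM at pretreated 0 h divided by mean CPM at naive 2 h, on a log axis, for the 4 genes (coloured) and the listed interferon genes with a fitted rise of at least 2-fold at 2 h (grey), in KO and WT cells. WT Oasl1 and Zbp1, at 0, and 1 other listed gene are not drawn, and the dashed line marks a ratio of 1. Ifi27 in KO cells and Bst2, Ifi27 and Lgals3bp in WT cells lie above 1.

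At 0 h after washout, 26 of 29 antiviral genes were called higher and 0 lower by edgeR in KO cells (median log2 change 1.85), where 11.5% of all genes tested were called higher and 11% lower. In WT cells 16 were higher and 0 lower (median 0.60, background 12.5%), but 5 were higher without WT naive 0 h replicate 1, 7 (and 1 lower) without WT pretreated 0 h replicate 2 and 6 without the 3 libraries lowest in Rn45s and Lars2. The largest rises in KO cells were those of Oas1a (4.08 ± 0.23 SE), Oas2 (4.04 ± 0.24) and Ifi44 (3.86 ± 0.26), and in WT cells those of Oas1a (3.32 ± 0.67), Oas2 (2.62 ± 0.88) and Mx2 (2.49 ± 0.53). Of the 18 membrane and presentation genes, 9 were higher and 4 lower in KO cells (5 higher without KO naive 0 h replicate 2). In WT cells 5 were higher and 2 lower (2 higher without WT naive 0 h replicate 1 or WT pretreated 0 h replicate 2, and also without the 3 low libraries, and 1 lower without WT naive 0 h replicate 1 or 2 or WT pretreated 0 h replicate 1). Psmb8 and Psmb9, immunoproteasome subunits, rose by 1.41 and 0.99 and the checkpoint ligand Cd274 by 0.94 in KO cells. In WT cells Cd274 (0.59), Ifitm3 (0.39) and B2m (0.31) led. Ly6a fell by 0.46 in KO cells and by 0.71 in WT cells, and Ly6c1 by 0.81 and by 0.49. Ifitm1 fell by 2.04 in KO cells.

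The signalling genes were a mixed group after washout. In KO cells 5 of 12 were called higher and 3 lower (edgeR; 1 lower without KO naive 0 h replicate 2, without KO pretreated 0 h replicate 2 or without the 3 low libraries). In WT cells 7 were called higher and 1 lower. Usp18 was raised by 3.12 ± 0.13 (log2, SE) in KO and 3.29 ± 0.28 in WT cells, Irf7 by 2.16 ± 0.14 and 1.62 ± 0.26, Irf9 by 1.12 ± 0.067 and 1.47 ± 0.10, and Stat2 by 0.55 ± 0.066 and 0.49 ± 0.086. The receptor gene Ifnar1 fell by 0.13 in KO and by 0.19 in WT cells, and Ifnar2 by 0.26 in KO cells, with -0.15 and no call in WT cells. Socs3 fell by 0.27 in KO cells and rose by 0.36 in WT cells. Socs1 had 0.40 and no call in KO cells and rose by 0.49 in WT cells. Jak1, Tyk2 and Irf1 were not called in either genotype, with changes between -0.15 and 0.030. In level, Irf9 kept 0.470 of its 2 h level in KO and 0.373 in WT cells, and Usp18 0.0561 and 0.173.

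Xaf1's partner Xiap was not called after washout in either genotype (edgeR), with log2 changes of -0.0071 ± 0.054 (SE) in KO and -0.076 ± 0.056 in WT cells. The list of relatives and partners of the 4 genes had 13 counted members, of which 7 were called higher and 1 lower in KO cells and 4 higher and 1 lower in WT cells. Ifi27l2a, a relative of Ifi27, had 12.7 ± 3.24 CPM (SD, n = 2) in KO pretreated 0 h cells against 2.37 ± 0.186 in KO naive 0 h cells, and 0.711 ± 0.0886 in WT pretreated 0 h cells against 0.197 ± 0.197 in WT naive 0 h cells. It was called in both, with log2 changes of 2.44 and 1.68. Ifi27l2b was called in KO cells (3.50 ± 0.57) from very low levels, 0.928 CPM against 0.0875. Lgals3, which encodes the galectin that Lgals3bp binds, rose by 0.72 ± 0.064 in KO and by 0.35 ± 0.044 in WT cells. Its level differed far more by genotype, 27.8 ± 4.17 CPM in KO pretreated 0 h cells against 315 ± 1.61 in WT pretreated 0 h cells. Lgals9 rose in KO cells (0.63 ± 0.066) and was not called in WT cells (0.13 ± 0.064). Lgals1 rose by 0.15 in KO cells with 0.083 and no call in WT cells, and Lgals8 had 0.045 and no call in KO cells and fell by 0.25 in WT cells. Birc5 (survivin) rose by 0.32 in KO and 0.48 in WT cells. Birc2 fell by 0.19 in KO cells with -0.18 and no call in WT cells, and Birc3, Casp9 and Diablo were not called in either.

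The second exposure started from the level left after washout, which chose the genes, so a higher level in pretreated than in naive cells at 2 h follows in part from the choice. In pretreated cells, 2 h of interferon brought Bst2 to 2.05 times its pretreated 0 h level in KO and 2.37 times in WT cells, Lgals3bp to 1.95 and 2.24 times, Xaf1 to 5.07 and 5.64 times and Ifi27 to 0.914 and 1.14 times. In CPM, KO cells gained 42.8 for Bst2 in the second exposure against 37.6 in the first, 47.4 against 40.7 for Lgals3bp and 77.6 against 71.4 for Xaf1. WT cells gained 14.5 against 2.88, 19.3 against 3.59 and 27.7 against 6.50 for the same 3 genes. The gain in the second exposure was thus several times that in the first in WT cells and close to it in KO cells. Ifi27 changed by -3.82 against -3.99 CPM in KO cells and by 6.65 against 0.123 in WT cells.

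Set against naive 2 h cells, all 4 genes had higher fitted levels in pretreated 2 h cells of both genotypes. These changes carry the chosen washout level with them and are given with no p. In KO cells the log2 change was 0.80 ± 0.087 (SE) for Bst2, 0.69 ± 0.077 for Lgals3bp, 0.33 ± 0.10 for Xaf1 and 0.90 ± 0.11 for Ifi27. In WT cells it was 2.17 ± 0.11 for Bst2, 1.76 ± 0.086 for Lgals3bp, 1.93 ± 0.12 for Xaf1 and 1.04 ± 0.082 for Ifi27. For Ifi27 these values lie close to its changes after washout, 0.83 in KO and 1.07 in WT cells. The background was 19.4% of 13802 genes called in KO and 25.3% in WT cells, with 11.6% and 13.3% called higher and 7.81% and 12% lower. In KO cells the background fell to 1740 genes without KO pretreated 2 h replicate 1, against 2680.

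The change with pretreatment at 2 h was smaller in KO than in WT cells for Bst2 (difference of log2 changes -1.37 ± 0.14 SE, edgeR adjusted p = 3e-09), Lgals3bp (-1.07 ± 0.12, edgeR adjusted p = 2.8e-09) and Xaf1 (-1.60 ± 0.16, edgeR adjusted p = 1.2e-06). For Ifi27 the difference was -0.14 ± 0.13 (edgeR adjusted p = 0.62). Of all genes tested 9.9% had a called difference, 5.56% positive and 4.35% negative, the direction of these 3 genes. For the 4 genes both changes carry the washout level that chose them, so their difference can carry it too. The p-values do not allow for that choice. They and the differences rest on the single KO naive 2 h library, which the model assumes to vary like the others. Bst2, Lgals3bp and Xaf1 reached 46.8, 58.7 and 74.6 CPM in it, against means of 5.34, 9.97 and 8.51 in WT naive 2 h cells.

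**Figure D4:**
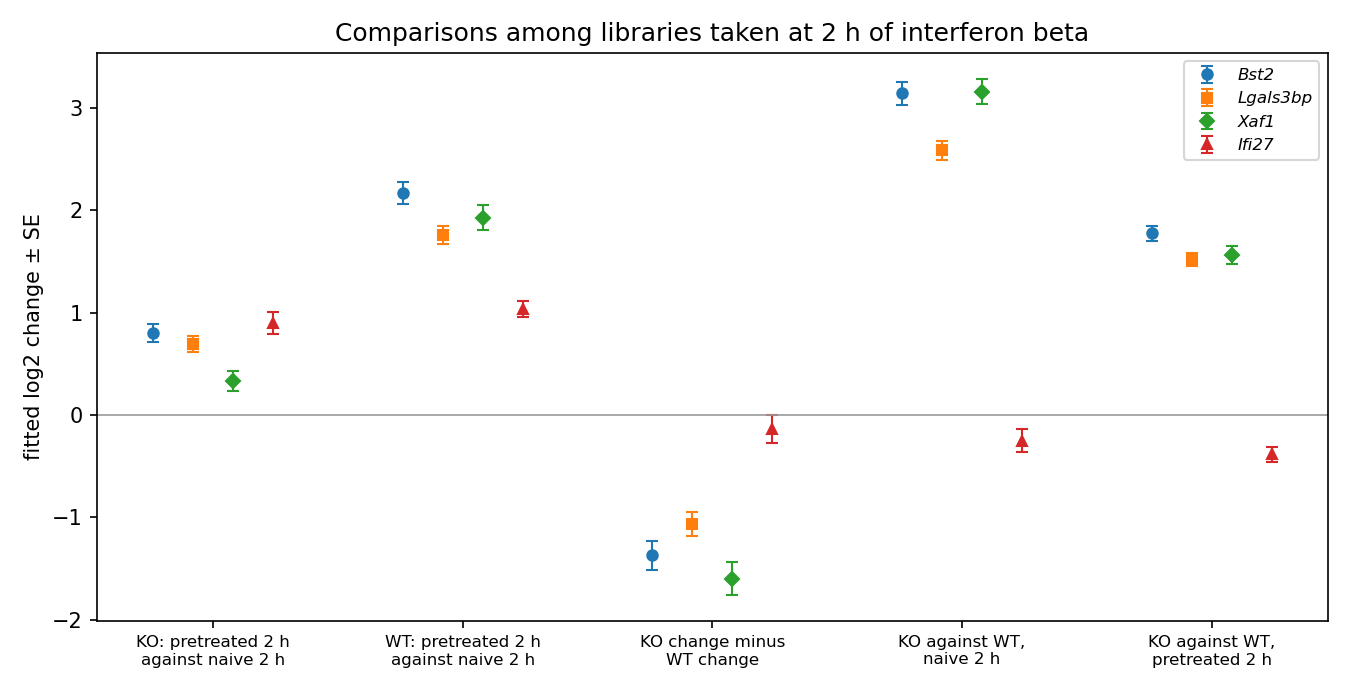
Fitted log2 changes with SE for the 4 genes in the comparisons made only of libraries taken at 2 h of interferon beta. The KO change minus the WT change is the difference of the first 2 comparisons. Bst2, Lgals3bp and Xaf1 lie above 0 in the comparisons of pretreated with naive cells and of KO with WT cells, and Ifi27 lies at -0.25 and -0.38 in KO against WT.

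Pretreated 2 h against naive 2 h, the antiviral list had 21 of 29 genes called higher in KO cells (median log2 change 0.54) and 28 in WT cells (median 2.30), with 0 lower in both (edgeR). The largest rises were in Oas2 (1.78 ± 0.12 SE in KO, 3.57 ± 0.28 in WT cells) and Rsad2 (1.47 ± 0.061 and 3.10 ± 0.14), with Oas1a (1.35 ± 0.12) in KO and Ddx60 (3.24 ± 0.35) in WT cells. The difference between genotypes was called for 28 of 29, all smaller in KO cells, with the widest for Oasl1 (-2.57 ± 0.62), Ifit1 (-2.41 ± 0.22) and Ddx60 (-2.35 ± 0.40). Of 18 membrane and presentation genes, 9 were higher and 3 lower in KO cells and 9 higher and 2 lower in WT cells. Cd274, Il15 and Tnfsf10 led in both, with Cd274 at 0.66 ± 0.076 in KO and 2.22 ± 0.098 in WT cells, Il15 at 0.85 ± 0.17 and 1.81 ± 0.21, and Tnfsf10 at 0.60 ± 0.096 and 1.76 ± 0.29. Ly6c1 fell by 1.12 in KO and by 0.72 in WT cells, Ly6a by 0.73 and by 0.66, and Ifitm2 by 0.27 in KO cells. The genotype difference was called for 7, all smaller in KO cells and led by Cd274 (-1.57 ± 0.13).

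Among the signalling genes in the same comparison, 4 of 12 were higher and 2 lower in KO cells (1 lower without either KO pretreated 2 h library) and 7 higher and 1 lower in WT cells. Usp18 rose by 0.68 ± 0.066 (log2, SE) in KO and 3.01 ± 0.070 in WT cells, Irf7 by 0.52 ± 0.071 and 1.99 ± 0.081, Irf1 by 0.38 ± 0.057 and 1.11 ± 0.053 and Socs1 by 0.76 ± 0.095 and 0.94 ± 0.097. Stat2 and Irf9 had -0.023 and -0.077 with no call in KO cells and rose in WT cells, by 1.11 ± 0.057 and 0.62 ± 0.063. The genotype difference was called by edgeR for 6 of 12 signalling genes, all smaller in KO cells. Among the genes named here it was called for all but Socs1, between -0.70 for Irf9 and -2.33 for Usp18. Ifnar1 fell by 0.34 in KO and by 0.27 in WT cells, and Tyk2 by 0.21 in KO cells. Ifnar2, Jak1 and Socs3 were not called in either genotype.

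Of the relatives and partners, 5 of 13 were higher and 2 lower in KO cells and 7 higher and 1 lower in WT cells at pretreated 2 h against naive 2 h. Ifi27l2a rose by 1.58 ± 0.17 (log2, SE) in KO and 2.00 ± 0.42 in WT cells, Lgals3 by 0.62 ± 0.081 and 0.23 ± 0.043, Lgals9 by 0.30 ± 0.066 and 0.66 ± 0.060 and Birc5 by 0.26 ± 0.067 and 0.47 ± 0.055. Ifi27l2b rose by 2.00 ± 0.54 in KO cells, and Birc3 (1.09 ± 0.39) and Lgals8 (0.22 ± 0.058) rose in WT cells. Casp9 fell by 0.44 in KO and by 0.34 in WT cells, and Birc2 by 0.22 in KO cells. Xiap, Diablo and Lgals1 were not called in either.

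KO cells had more Bst2, Lgals3bp and Xaf1 RNA than WT cells at 2 h in both states. The pretreated 2 h levels carry the washout level that chose the genes, and the p-values do not allow for that choice. The naive 2 h differences and their p-values rest on the single KO naive 2 h library, which the model assumes to vary like the others. At naive 2 h, KO against WT, the log2 difference was 3.14 ± 0.11 (SE) for Bst2 (edgeR adjusted p = 1.4e-24), 2.59 ± 0.092 for Lgals3bp (edgeR adjusted p = 2.4e-27) and 3.16 ± 0.12 for Xaf1 (edgeR adjusted p = 2.3e-14). At pretreated 2 h it was 1.78 ± 0.074 for Bst2 (edgeR adjusted p = 1.7e-22), 1.52 ± 0.065 for Lgals3bp (edgeR adjusted p = 1.8e-24) and 1.56 ± 0.089 for Xaf1 (edgeR adjusted p = 7.1e-12). Ifi27 went the other way, at -0.38 ± 0.076 at pretreated 2 h (edgeR adjusted p = 7.2e-05). At naive 2 h Ifi27 had -0.25 ± 0.11 and missed the threshold (edgeR adjusted p = 0.055), with values of 0.01 without WT naive 2 h replicate 2 and 0.43 without replicate 1. These calls stand against a background in which most genes differed, 61.1% at naive 2 h (32.1% higher and 29% lower) and 66.2% at pretreated 2 h (35.4% higher and 30.8% lower).

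Without interferon in the medium the genotype ratios of mean CPM, KO over WT, were 3.71 for Bst2, 2.81 for Lgals3bp, 1.59 for Xaf1 and 0.983 for Ifi27 at naive 0 h. At pretreated 0 h they were 3.86, 3.18, 3.19 and 0.935 in the same order. Bst2, Lgals3bp and, by a smaller ratio, Xaf1 were thus higher in KO cells before any interferon. After washout the ratio was larger for each of them, most of all for Xaf1. All 29 antiviral genes were called higher in KO than in WT cells at naive 2 h (median log2 difference 4.62) and at pretreated 2 h (median 2.93), led at naive 2 h by Oasl1, Cmpk2 and Rsad2 (8.44, 7.73 and 7.60) and at pretreated 2 h by Cmpk2, Rsad2 and Oasl1 (6.82, 5.96 and 5.88). In WT naive 2 h cells Oasl1, Cmpk2 and Rsad2 had low means of 0.0907, 0.630 and 1.49 CPM. All 12 signalling genes were higher too, with Usp18 (3.98 at naive 2 h and 1.65 at pretreated 2 h) ahead of Irf7 (2.94 and 1.47). Of the 18 membrane and presentation genes 17 were higher at naive 2 h and 15 at pretreated 2 h, with H2-K1 at 7.10 and 7.18 and Psmb8 at 7.23 and 6.08. H2-K1 and Psmb8 were also low in WT naive 2 h cells, with means of 0.447 and 0.0691 CPM. Of the 13 relatives and partners, 9 were higher and 1 lower at naive 2 h and 9 higher and 2 lower at pretreated 2 h. Lgals3 was lower in KO cells by the widest margin, at -4.07 ± 0.075 and -3.68 ± 0.052, and Ifi27l2a higher, at 4.14 ± 0.34 and 3.72 ± 0.18. The list values and counts at naive 2 h also rest on 1 KO library.

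The lists were also followed through the first exposure. At naive 2 h against naive 0 h, 29 of 29 antiviral genes were called higher in KO cells (median log2 change 5.92, background 19.2% higher) and 24 in WT cells (median 2.25, background 15.2%). Of the signalling genes 8 of 12 were called higher in each genotype, Usp18 with 7.49 ± 0.10 (SE) in KO and 5.91 ± 0.18 in WT cells, Irf7 with 5.53 ± 0.11 and 4.22 ± 0.17 and Irf9 with 2.41 ± 0.073 and 2.97 ± 0.087. Of the membrane and presentation genes 16 of 18 were higher in KO cells, and 8 were higher and 1, Il15, lower in WT cells (0 lower without WT naive 0 h replicate 1 or without either WT naive 2 h library). Cd274 led both, with 6.60 ± 0.13 in KO and 2.31 ± 0.17 in WT cells. Relatives and partners had 8 of 13 higher and 1 lower in KO cells, led by Lgals9 (2.01 ± 0.072), Ifi27l2a (1.34 ± 0.22) and Lgals8 (1.32 ± 0.066), and 2 higher and 1 lower in WT cells, Lgals3 (0.33), Lgals9 (0.36) and Birc2 (-0.45).

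Across the 15 libraries the level of Bst2 followed that of Lgals3bp most closely (Pearson r = 0.996 on TMM-scaled log2 CPM with a prior count of 2), then Emp1 (0.989), which encodes a membrane protein, and Oas1a (0.972). Lgals3bp had the same 2 companions beside Bst2, Emp1 at 0.991 and Oas1a at 0.975. Emp1 moved over a narrow range, with 549 ± 4.29 CPM in KO pretreated 2 h cells and 311 ± 41.3 in WT naive 0 h cells (SD, n = 2 each). Xaf1 was nearest to Apol9a (0.983), Apol9b (0.981) and Rtp4 (0.980). Apol9a and Apol9b are near-identical copies whose counts are uncertain. Apol9a had 23.5 ± 0.610 CPM in KO pretreated 2 h cells, 5.88 ± 0.644 in KO pretreated 0 h, 17.1 in KO naive 2 h and 0.795 ± 0.174 in KO naive 0 h cells. Ifi27 stood apart from the other 3, with Ccbe1 (0.972), Birc5 (0.955) and Tdrkh (0.950) nearest. Ccbe1, which encodes a secreted protein needed for lymphatic vessel growth, had 4.94 ± 0.453 CPM in KO pretreated 2 h, 6.10 ± 1.32 in KO pretreated 0 h, 2.77 in KO naive 2 h and 3.04 ± 0.0704 in KO naive 0 h cells. In WT cells Ccbe1 had 8.59 ± 0.464, 7.39 ± 0.191, 3.74 ± 0.265 and 3.58 ± 0.448 CPM in the same order, again high in pretreated and low in naive cells. Between members, r was 0.911 for Bst2 and Xaf1, 0.909 for Lgals3bp and Xaf1, 0.572 for Bst2 and Ifi27 and 0.524 for Ifi27 with each of the other two. These correlations describe libraries that share groups and depth. By rank correlation 1 of the 3 nearest genes was shared for Bst2, Lgals3bp and Ifi27 each.

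The libraries held 17170845 to 44116418 gene counts (median 28585502). Whsc1, the targeted gene, had 91.5 to 123.9 CPM in 7 KO libraries and 105.5 to 150.7 in 8 WT libraries, and with reads from the gene still counted in KO cells these values are no check of the deletion. Fibroblast markers summed to 7296 to 9321 CPM in KO and 9896 to 15653 in WT libraries, carried by Vim, Col1a2 and Col1a1. Single markers went against that sum, with means of 30.1 to 33.9 CPM for Thy1 in KO groups against 0.0691 to 0.130 in WT groups and of 38.5 to 122 for Pdgfra against 4.53 to 7.15. Col3a1 and Lum were also called higher in KO cells at naive 2 h, by 1.43 and 5.83 on the log2 scale (edgeR), and Lum was at 0 in 6 libraries. Macrophage and blood markers summed to 5.44 to 9.19 CPM in KO and 14.0 to 21.2 in WT libraries, with Emr1, Tyrobp and Aif1 at 0 in all 15 and Ptprc at most 0.0737. Endothelial markers summed to 0.525 to 1.78 CPM and epithelial markers to 1.11 to 5.03 over all libraries. The fibroblast and macrophage markers moved with genotype, and their part in the differences between KO and WT cells was not tested.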

How the data were processed

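The authors deposited raw read counts per gene symbol, 1 table per library of 24015 genes. The build was mm9 and the tools were STAR 2.5.2b, bcl2fastq 2.15 and HTSeq, per the submitters' processing notes. Which annotation, strand option and read filters were used is not given in the sources used here. The 5 summary lines were left out (reads in no gene were 35.1% to 41.3%, ambiguous reads 0.393% to 0.496%). CPM were computed over all gene counts. For tests, counts of the 13802 genes kept by filterByExpr (minimum count 10) were scaled by TMM (factors 0.895 to 1.22) and fitted with edgeR 4.0.16 (R 4.3.3) in a quasi-likelihood model of 8 groups over 15 libraries with 7 residual degrees of freedom. Two-sided Benjamini-Hochberg adjusted p below 0.05 over all genes was called. DESeq2 1.42.0 was an alternative.

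The members and lists were chosen with earlier results of these data known, so members carry p-values only in the 3 comparisons of KO with WT cells made of 2 h libraries (naive, pretreated, and the difference of their changes). The 4 members are named in every library, with all genes of the signalling and relatives lists. Some genes of these lists are not reported here, though the counts over lists hold them. From the antiviral and membrane lists the 3 largest rises and falls per comparison and the 3 highest and lowest ratios were eligible, and for each member the 3 genes most correlated with it. Counts of replicate pairs differed by more than sampling noise in every group with 2 libraries (chi-square 1.77 to 4.10 per degree of freedom, Rn45s and Lars2 left out). Same-numbered libraries did not deviate together (correlations -0.018 to 0.064), so replicate numbers were not treated as pairs. The fit was tested on simulated data. Promoter sequences came from RefSeq (GRCm38.p6) and were matched by symbol for 3 of 4 members.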

Additional observations from a re-analysis of the deposited data

Results flagged for a closer look

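The effect of pretreatment at 2 h differed between genotypes for 3 of the 4 genes by a test of the difference itself (edgeR, both directions, adjusted over all 13802 genes). Of all genes tested 9.9% had a called difference, 5.56% positive and 4.35% negative. The direction was not particular to these 3 genes. The difference was called for 28 of 29 listed antiviral genes, all smaller in KO cells (median over the list -1.57). For Bst2 the log2 change was 0.80 in KO and 2.17 in WT cells, a difference of -1.37 ± 0.14 (SE). For Lgals3bp the change was 0.69 in KO and 1.76 in WT cells, a difference of -1.07 ± 0.12. For Xaf1 it was 0.33 in KO and 1.93 in WT cells, a difference of -1.60 ± 0.16. Each pretreated 2 h library lay above the naive 2 h libraries of its genotype for these genes, which follows in part from their choice. The share of all genes separated in this way is not given here. The differences can also carry the washout level that chose the genes, which the test does not allow for. All 3 differences rest on 1 KO naive 2 h library, in which the genes already stood at 46.8, 58.7 and 74.6 CPM.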

How the results depend on the processing

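Of the alternatives for values of the 4 genes, 373 kept direction and side of the threshold (or moved by less than the spread), 13 moved, 1 reversed, 5 became calls and 4 lost one. Xaf1 in KO cells, pretreated 2 h against naive 2 h, had a log2 change of 0.33 in edgeR and in DESeq2. It was 0.32 without the 3 libraries lowest in Rn45s and Lars2 (an alternative chosen after seeing the data). With 1 library left out it was 0.31 to 0.35. No p is given for this change, which carries the washout level that chose the genes. Its edgeR call was kept neither by DESeq2 nor without the 3 libraries and is not read as a result. Ifi27, KO against WT at naive 2 h, became a call at -0.26 with RLE size factors, at -0.25 with no filter, at -0.27 in a fit of the compared groups only and at -0.27 without Rn45s and Lars2, and ran between -0.34 and -0.12 with 1 library left out. The reversal was Ifi27 at 2 h in naive KO cells, 0.012 with a replicate block against -0.041, and the block changed no other direction or call of the 4 genes. For 2 h in naive WT cells, Bst2 was 1.61 and Lgals3bp 1.05 without the 3 low libraries, with leave-one-out ranges of 1.09 to 1.60 and 0.72 to 1.04, and 0.13 to 0.36 for Ifi27. For washout in WT cells, Bst2 was 2.48 and Lgals3bp 1.59 without the 3 libraries, with ranges of 2.11 to 2.48 and 1.34 to 1.59, and 0.92 to 1.19 for Ifi27. For washout in KO cells the ranges were 1.41 to 1.55 for Lgals3bp and 2.28 to 2.94 for Xaf1. The ratio of pretreated 0 h to naive 2 h in KO cells was 0.736 for Lgals3bp on TMM-scaled CPM. Counts of all called genes moved by over 1.5 times for pretreated against naive 2 h in KO cells (1768 in DESeq2, 1740 without KO pretreated 2 h replicate 1, against 2680), for the genotype difference (900 in each, against 1367), for 2 h and washout in WT cells without WT naive 0 h replicate 1 (2811 against 4275 and 2177 against 3339) and for washout in KO cells without KO naive 0 h replicate 2 (1943 against 3098). The cause was not tested. Groups of 2 and 1 libraries limit all tests.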
